A study of Gossypium hirsutum with 3 samples.

Results

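WD-40 repeat genes were followed in cotton (Gossypium hirsutum) fiber at 1 and 10 days post anthesis (dpa), the stages of fiber initiation and of rapid elongation. The 2 members are Contig1481, whose best protein match is a transducin family or WD-40 repeat family protein of Arabidopsis thaliana, and WTOV_01-01-17R_C02_InvR_12Feb04_012.ab1 (hereafter WTOV_01-01-17R_C02), whose best match is another WD-40 repeat family protein of Arabidopsis. They were taken by name from the 11143 genes on the array, with all of their probes, 4 for Contig1481 and 3 for WTOV_01-01-17R_C02. Both were picked because of what these same arrays showed, so their 10 dpa to 1 dpa ratios are described here and were not tested. The probes were designed on assembled expressed sequence tags, and no genome position was given for either gene in the sources used here.

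Fiber cells are single cells of the ovule epidermis that begin to bulge outward around the day of flowering and then elongate without dividing. A WD-40 repeat is a short protein motif that often ends in tryptophan and aspartate, and several repeats fold together into a ring of blades that holds other proteins. The best known proteins of this kind are the beta subunits of heterotrimeric G proteins. Transducin is the G protein of the vertebrate eye, and the name of the transducin family comes from it. In Arabidopsis the WD-40 protein TTG1 joins MYB and bHLH transcription factors in the complex that starts leaf hairs, and cotton genes related to TTG1 are called GhTTG1. Other WD-repeat proteins coat transport vesicles or take part in making ribosomes, so the motif alone does not tell what a protein does.

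Labelled cDNA of 1 dpa fiber and of 10 dpa fiber was hybridized together on each of 3 two-colour arrays, and the arrays that carried ovule cDNA were not analysed here. All plants were grown in the field and no treatment was given. The methods name 2 genotypes, DES119 and ST4793R, without saying which was used on these arrays. The 1 dpa fiber was shaken off frozen ovules of pooled bolls with glass beads and the 10 dpa fiber was dissected from the ovule, so the way of harvest and the stage cannot be told apart. The RNA was polyribosomal RNA by the methods, while the labels name total RNA. The numbers of the replicates, 1 to 3, are only names. Replicate 2 is the array with swapped dyes. The array files give the same RNA code to the 1 dpa samples of replicates 1 and 2 and the same code to the 10 dpa samples of replicates 1 and 3, so the spread between arrays, which is all the p-values measure, may be partly technical. Across all genes the ratios of replicates 2 and 3 correlated at r = 0.839, against 0.575 and 0.601 for replicate 1 with each of them. Genes are not independent replicates, and these values only describe how far replicate 1 stood apart.

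Contig1481 was lower in 10 dpa fiber on every array, and WTOV_01-01-17R_C02 was higher on every array. For Contig1481 the log2 ratio of the later over the earlier stage was -1.78, -2.13 and -1.73 on replicates 1, 2 and 3. The mean was -1.88 ± 0.22 (SD, n = 3 arrays), a level 3.68-fold lower in 10 dpa fiber. For WTOV_01-01-17R_C02 the same ratios were 0.66, 0.53 and 0.34, with a mean of 0.51 ± 0.16 (SD, n = 3 arrays), a level 1.43-fold higher in 10 dpa fiber. The ranges of the 2 genes over the arrays did not overlap. The ratio of WTOV_01-01-17R_C02 exceeded that of Contig1481 by 2.44, 2.66 and 2.07 on the 3 arrays, a mean of 2.39 ± 0.30 (SD).

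Each gene's place among all 11143 genes gives these ratios a scale. Only 23 genes had a lower mean log2 ratio than Contig1481, whereas 1142 had a higher one than WTOV_01-01-17R_C02. In the fit across all genes 1520 genes, or 13.6%, passed an adjusted p of 0.05 (limma, Benjamini-Hochberg), 895 of them (8.03%) higher and 625 (5.61%) lower in 10 dpa fiber. The higher genes made up 58.9% of the calls, 72.8% of the 703 calls when each array was only centred on its median, and 44.7% of the 2191 calls without replicate 1 (979 higher and 1212 lower). Of the members 1 of 2, Contig1481, was among the calls. Because the members were chosen on this contrast, nothing is read from that count.

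**Figure D1:**
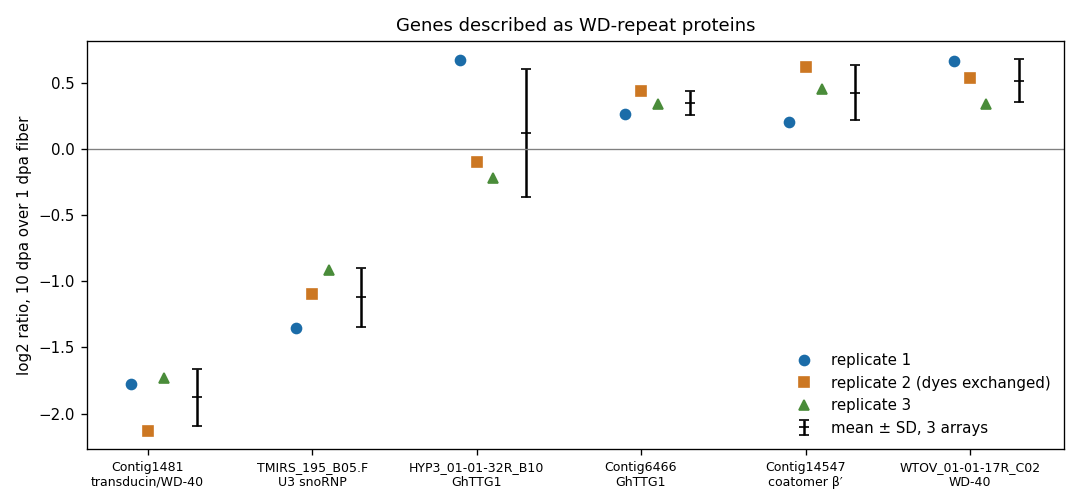
Log2 ratio (vertical axis, 10 dpa over 1 dpa fiber) for the 6 genes described as WD-repeat proteins among the 1022 described genes, ordered by their mean; coloured symbols are the 3 arrays and the black bar is the mean ± SD. Contig1481 has a mean of -1.88 and WTOV_01-01-17R_C02 a mean of 0.51.

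The spot signals behind the ratio of Contig1481 were read probe by probe. Probe 2 gave mean spot intensities of 2906, 1400 and 1045 scanner units in 1 dpa fiber and of 567, 158 and 206 in 10 dpa fiber on replicates 1, 2 and 3. Probe 3 gave 5812, 2143 and 1522 in 1 dpa fiber and 2338, 348 and 452 in 10 dpa fiber. Probe 4 gave 7881, 3105 and 2311 in 1 dpa fiber and 4587, 270 and 371 in 10 dpa fiber. With each of these 3 probes, 1 dpa fiber was brighter on every array. The 2 stages did not overlap across arrays for probe 2, while for probes 3 and 4 the 10 dpa signal of replicate 1 was above the 1 dpa signal of replicates 2 and 3. For these 3 probes replicate 1 was the brightest array in both stages.

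Probe 1 of Contig1481 did not share this pattern. Its intensities were 762, 445 and 405 in 1 dpa fiber and 591, 329 and 636 in 10 dpa fiber, so the stages overlapped, and on replicate 3 the later stage was the brighter one. All 24 intensities of the gene exceeded the negative control reference, which is the 95th percentile of the 314 negative controls on that array in that dye, and the dimmest was 1.67 times that value. The dimmest was probe 2 in 10 dpa fiber of replicate 2. The signal of probe 1 was at least 3.48 times the reference in both stages, so its ratio was measured above background on each array.

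**Figure D2:**
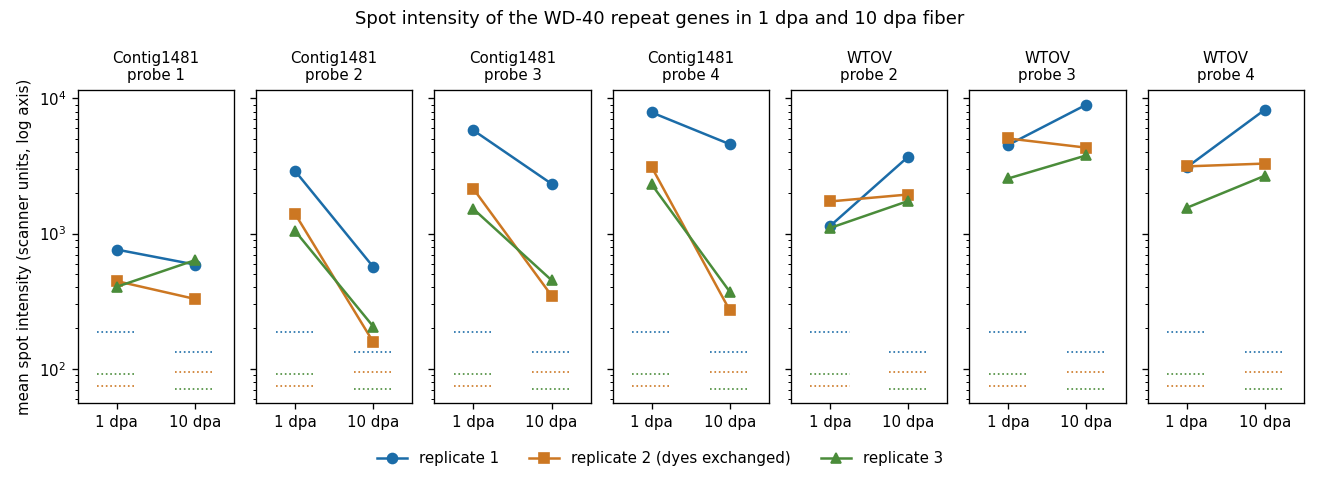
Mean spot intensity (vertical log axis, scanner units, before any correction) of each probe of the 2 genes in 1 dpa and 10 dpa fiber; a line joins the 2 stages of 1 array and the dotted lines are the negative control reference (95th percentile) of that array and stage. Probes 2 to 4 of Contig1481 are dimmer in 10 dpa fiber on all 3 arrays, as with 2906 against 567 on replicate 1 for probe 2, while probe 1 overlaps, and no point lies under its dotted line.

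After correction for background and dye, the log2 ratios of probe 2 were -2.82, -2.93 and -2.53, with a mean of -2.76 ± 0.21 (SD, n = 3 arrays). Those of probe 3 were -2.04, -2.26 and -2.00, with a mean of -2.10 ± 0.14. Those of probe 4 were -1.63, -3.18 and -2.91, with a mean of -2.57 ± 0.82, and replicate 1 was the array that stood off. Probe 1 had ratios of -0.61, -0.16 and 0.51 and a mean of -0.087 ± 0.56, within its spread of no difference. In all, 11 of the 12 probe ratios of Contig1481 were below 0, and the exception was probe 1 on replicate 3. Probe 1 was singled out after its values had been seen.

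Without probe 1 the mean ratio of Contig1481 was -2.48 ± 0.31 (SD, n = 3 arrays), a level 5.56-fold lower in 10 dpa fiber, against 3.68-fold with all 4 probes. Probe 1 lay above the mean of the other probes by 1.56, 2.63 and 2.99 on the log2 scale on replicates 1, 2 and 3, on average by 2.39 ± 0.74. That gap was about as large as the gap between the 2 genes. The direction of the gene was lower in 10 dpa fiber with or without the probe, and with the median of its probes the mean ratio was -2.23.

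The disagreement was also set against that of other genes. The SD between the mean ratios of the 4 probes was 1.23 for Contig1481, against a median of 0.172 over the 8604 genes with 4 probes, of which 14 had a larger one. Among the 159 of these genes with a mean log2 ratio between -3 and -1 the median SD was 0.435, and 3 of them exceeded Contig1481. Repeated spots of the same probe differed far less, with median SDs of the log2 ratio of 0.139, 0.0431 and 0.0456 on replicates 1, 2 and 3 over 831 probes with repeats. Why probe 1 differed from the others was not tested.

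**Figure D3:**
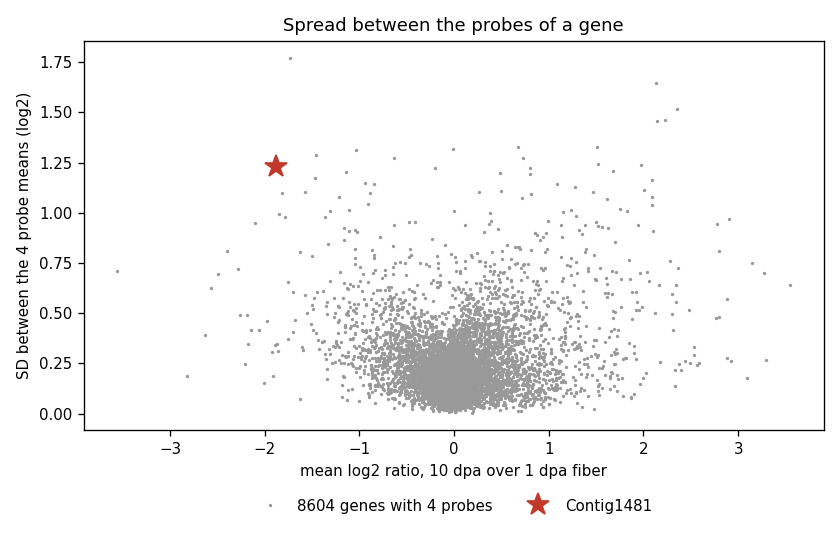
SD between the mean log2 ratios of the 4 probes (vertical axis) against their mean log2 ratio (horizontal axis, 10 dpa over 1 dpa fiber) for the 8604 genes with 4 probes; each grey dot is a gene and the star is Contig1481. The star lies at an SD of 1.23, and 14 dots lie above it.

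WTOV_01-01-17R_C02 had 3 probes, numbered 2, 3 and 4. Probe 2 gave 1137, 1731 and 1101 scanner units in 1 dpa fiber and 3705, 1948 and 1743 in 10 dpa fiber on replicates 1, 2 and 3. Probe 3 gave 4534, 5061 and 2561 in 1 dpa fiber and 9008, 4325 and 3795 in 10 dpa fiber. Probe 4 gave 3089, 3144 and 1551 in 1 dpa fiber and 8249, 3299 and 2679 in 10 dpa fiber. The 10 dpa signal was the brighter one in 8 of 9 pairs, and the exception was probe 3 on replicate 2, the array with exchanged dyes. For probe 2 the stages just did not overlap across arrays, at 1731 against 1743, whereas for probes 3 and 4 they did. All 18 intensities exceeded the negative control reference, and the dimmest was 6.08 times that value.

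After correction all 9 probe ratios of WTOV_01-01-17R_C02 were above 0. Probe 2 had log2 ratios of 1.23, 0.66 and 0.37 and a mean of 0.75 ± 0.44 (SD, n = 3 arrays). Probe 3 had 0.14, 0.34 and 0.20, with a mean of 0.22 ± 0.10. Probe 4 had 0.63, 0.61 and 0.46, with a mean of 0.56 ± 0.09. The probes thus shared their direction and differed in size, with an SD between their means of 0.267 against a median of 0.150 over the 1706 genes with 3 probes, of which 371 had a larger one.

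The size of the ratio of WTOV_01-01-17R_C02 on single arrays depended on the dye normalization. From background-subtracted signals with no normalization its log2 ratio was 1.40, 0.003 and 0.69 on replicates 1, 2 and 3, so that the array with exchanged dyes showed almost no difference. In these unnormalized values the median of all genes was -0.20, against -0.04 after loess normalization. The mean of the gene was 0.70 without normalization and 0.51 with it. Contig1481 was -1.23, -2.67 and -1.63 without normalization, below 0 on every array and below WTOV_01-01-17R_C02 on every array.

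**Figure D4:**
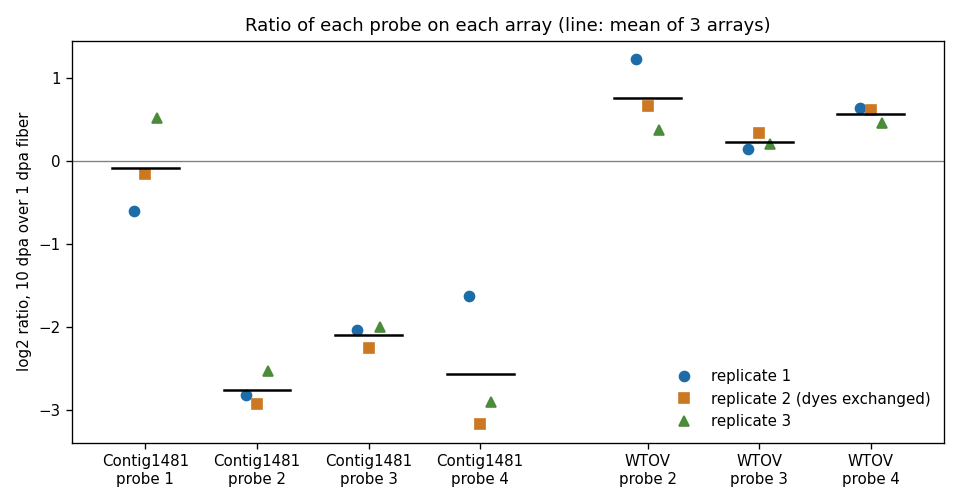
Log2 ratio (vertical axis, 10 dpa over 1 dpa fiber) of each probe of the 2 genes; symbols are the 3 arrays and the black line is their mean. Probes 2 to 4 of Contig1481 have means from -2.76 to -2.10, its probe 1 has a mean of -0.087, and the 3 probes of WTOV_01-01-17R_C02 have means from 0.22 to 0.75.

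Descriptions were at hand for 1022 of the 11143 genes, most of them listed by the study for a change on its arrays, so WD-repeat genes among the rest were not searched. Of the described genes 4 more were WD-repeat proteins, of which 1 fell, 0 rose and 3 did not pass the test in limma. At an unadjusted p under 0.05 there were 2 higher and 1 lower. Over all genes 8.03% rose and 5.61% fell. None of the 4 other WD-repeat genes had as low a mean ratio as Contig1481, which was itself chosen on this contrast. The gene that fell was TMIRS_195_B05.F, matched to the human U3 small nucleolar interacting protein 2, which in human cells belongs to the particle that processes ribosomal RNA. Its log2 ratios were -1.36, -1.10 and -0.91, with a mean of -1.12 ± 0.22 (SD, n = 3 arrays; 95% interval of this gene alone -1.46 to -0.79, adjusted p = 0.00489, limma). All 12 probe ratios of this gene were below 0. Its arrays did not overlap with those of Contig1481, which lay lower on each. When the arrays were scaled to a common spread, no gene of the 11143 passed the adjusted p in limma (2699 had an unadjusted p under 0.05), and TMIRS_195_B05.F then had a mean of -1.14 and an adjusted p of 0.0620. An F-test for each gene alone, without limma's sharing of the spread between genes, gave it an adjusted p of 0.209.

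The 2 genes matched to GhTTG1, the cotton relatives of the Arabidopsis leaf hair regulator, did not pass the test. Contig6466 had log2 ratios of 0.26, 0.44 and 0.34, with a mean of 0.35 ± 0.09 (SD, n = 3 arrays; 95% interval 0.05 to 0.64, adjusted p = 0.133, limma). The other, a single sequence tag whose name begins with HYP3, had 0.67, -0.10 and -0.22, with a mean of 0.12 ± 0.48 (95% interval -0.36 to 0.60, adjusted p = 0.802), so its arrays disagreed in sign. The value of replicate 1 came from probes 3 and 4, at 1.07 and 1.13. Their 1 dpa signals on that array were only 1.87 and 2.63 times the negative control reference. Without replicate 1 the mean was -0.16. It was -0.016 when the arrays were scaled to a common spread. Contig14547, matched to the beta prime subunit of the coatomer, the coat of vesicles that return from the Golgi to the endoplasmic reticulum, had 0.20, 0.62 and 0.45, with a mean of 0.42 ± 0.21 (95% interval 0.09 to 0.75, adjusted p = 0.104). Without replicate 1 its mean was 0.54, above the 0.44 of WTOV_01-01-17R_C02, and it passed (adjusted p = 0.0281). In order of mean ratio, WTOV_01-01-17R_C02, Contig14547, Contig6466 and the HYP3 tag matched to GhTTG1 followed each other within their spreads, and Contig1481 and TMIRS_195_B05.F stood below them.

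WD-40 proteins of the TTG1 type act with MYB factors, and 10 genes listed for that trichome network, the GhTTG1 genes included, were counted next. The list was chosen with earlier results of these data known. It was not a search of the array, and it leaves out some of the benchmark MYB genes. Of the 10 listed genes 1 rose, 0 fell and 9 did not pass in limma. At an unadjusted p under 0.05 in limma 2 of them were higher and 0 lower. Their median log2 ratio was 0.12 against -0.04 over all genes. Over all 11143 genes 13.6% passed, 8.03% higher and 5.61% lower. At an unadjusted p under 0.05 in limma, 1591 of all genes were higher and 1182 lower. The count therefore says little about the network itself. The gene that rose was GhRDL, an RD22-like gene known from cotton fiber, at 0.82 ± 0.24 (adjusted p = 0.0146, limma), but it did not pass without replicate 2 (mean 0.68, adjusted p = 0.0564) or without the array as block (adjusted p = 0.351). The MYB genes of the list were GhAF034130 (MYB2), GhAJ549758 (MYB109) and Contig3648. Their means were 0.12 ± 0.35, -0.03 ± 0.32 and 0.40 ± 0.50, with adjusted p of 0.752, 0.942 and 0.305 in limma. GhAF034130 had only 1 probe. Contig15274, related to the Arabidopsis homeobox gene GLABRA2 that acts after the complex, was at -0.31 ± 0.62 (adjusted p = 0.565), and without replicate 1 it was at -0.65 and passed (adjusted p = 0.0367).

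Because the study places its transducin in GTP signalling, genes of GTP signalling and of vesicle GTPases were listed as well. The study regards that pathway as a different one from its small GTPase pathway, and several listed genes belong to the latter. Of the 12 listed genes 5 rose, 2 fell and 5 did not pass. Their median log2 ratio was 0.27 against -0.04 over all genes. Over all genes 8.03% rose and 5.61% fell. The list was chosen with earlier results of these data known, so nothing is read from the count. Contig17179, a guanine nucleotide exchange factor, rose by 1.39 ± 0.23 (adjusted p = 0.00259, limma). Contig17299, a Rab1-like GTPase of transport from the endoplasmic reticulum, fell to a mean ratio of -1.86 ± 0.21 (adjusted p = 0.00113), and Contig16165, a SAR1 GTPase of the same step, fell to a mean ratio of -1.06 ± 0.40 (adjusted p = 0.0137). The call of Contig16165, which had only 1 probe, was lost with median centring (-0.79, adjusted p = 0.0587) and with plain background subtraction (-0.81, adjusted p = 0.121). Contig17299 was 3.63-fold lower in 10 dpa fiber, close to the 3.68-fold of Contig1481. Both genes of the list that fell are named here, but not all of those that rose.

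The genes that the study names together with the members were counted too, 7 of which were found on the array, and they were chosen by the study on these samples. The study describes those named with Contig1481 as higher in 1 dpa than in 10 dpa fiber. By semiquantitative RT-PCR, it reports its transducin (Contig1481) and a ribosomal protein as most abundant at the earlier fiber stage. The other samples of that PCR were ovules and 10 dpa fiber. Those named with WTOV_01-01-17R_C02 are described by the study as not lower in 10 dpa fiber. The split between them was thus largely set by that choice, and nothing is read from the counts. None rose, 4 fell and 3 did not pass in limma, with 4 at an unadjusted p under 0.05. Over all genes 8.03% rose and 5.61% fell. The 4 that fell were the ones named with Contig1481. Contig7833, a sulfotransferase-like gene, had a mean of -2.57 ± 0.52 (adjusted p = 0.00135). Contig3145, a prohibitin of the mitochondrial inner membrane, had -1.33 ± 0.25 (adjusted p = 0.00334), Contig3407, a MATE efflux protein that moves small molecules across membranes, -1.31 ± 0.48 (adjusted p = 0.00978) and Contig4289, ribosomal protein S13, -1.32 ± 0.53 (adjusted p = 0.0118). Without the array as block Contig3407 had an adjusted p of 0.0533. Contig1481 lay between Contig7833 and the others. The 3 named with WTOV_01-01-17R_C02 did not pass, among them TMIRS_117_D04.F, an ethylene response factor, at -0.22 ± 0.27 (adjusted p = 0.486). Contig3145 and TMIRS_117_D04.F each had 1 probe, so agreement between probes could not be checked for them.

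The genes most like each member were sought among the described genes by the distance of their 3 array ratios from the member's. For Contig1481 they were Contig3157, a nucleolar protein with ratios of -1.79, -2.27 and -1.69 at a distance of 0.146 on the log2 scale, Contig4366, a plasma membrane intrinsic protein or aquaporin with -1.76, -2.12 and -1.57 at 0.159, and Contig4454, histone H1 with -1.71, -1.95 and -1.69 at 0.196. These were also the 3 nearest among all genes. For WTOV_01-01-17R_C02 they were HYP3_01-01-33R_F07_InvR_03May04_053.ab1, matched to an unknown protein of rice, with 0.70, 0.59 and 0.39 at a distance of 0.0827, Contig4588, an actin of the cytoskeleton, with 0.61, 0.40 and 0.34 at 0.142, and Contig348, matched to an unnamed rice protein, with 0.79, 0.60 and 0.40 at 0.154. They ranked 4, 20 and 31 in nearness among all genes.

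Genes used as markers of cell types moved between the stages as well. The 6 genes taken as markers of dividing cells were histones and topoisomerase II, and which cells their transcripts came from was not tested. Each of the 6 genes had at least 1 spot above the negative control reference on every array in both stages. Their signals were summed after background and dye correction and after average brightness was evened between arrays. The sums ranged from 9732 to 15135 in the earlier stage and from 6191 to 9822 in the later one. They are not on the scale of the spot intensities given for the members. Over all 11143 genes, 6475 had a mean below 0, 5.61% fell and 8.03% rose. All 6 dividing-cell genes had a mean below 0, from -1.15 to -0.46. Of them 2 fell, Contig13847 (histone H3) at -1.15 ± 0.46 (adjusted p = 0.0132, limma) and Contig4036 (histone H2A) at -0.95 ± 0.35 (adjusted p = 0.0150). Neither passed without the array as block (adjusted p = 0.175 and 0.0761), and Contig4036 did not pass with median centring (-0.73, adjusted p = 0.207) or with plain background subtraction (-0.77, adjusted p = 0.153). Contig1440, with a weak match to photosystem I of green tissue, rose by 2.23 ± 0.53 (adjusted p = 0.00215). Its corrected signals were 757 to 2109 in 1 dpa and 4424 to 6999 in 10 dpa fiber. Each of the 7 fiber markers also had at least 1 spot above that reference on every array in both stages. Of these markers 3 rose and 1 fell. They are benchmark genes of the study, which itself reports the 3 that rose as increased in 10 dpa fiber. Nothing is therefore read from these counts. The summed corrected signals of the 7 markers were 46243 to 62065 in 1 dpa and 51130 to 85499 in 10 dpa fiber. The direction of the dividing-cell genes was that of Contig1481, and their part in its ratio was not tested. In samples of this kind fewer cells of a type and less RNA per cell cannot be told apart.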

How the data were processed

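Signals of 1 dpa and 10 dpa fiber cDNA were analysed on 3 two-colour arrays. The authors deposited scanner output in which each spot has a mean intensity and a mean local background, on a linear scale and not normalized, together with scanner p-values and flags that were not used here. A table of log2 ratios, also deposited by the authors, equals plain background-subtracted red over green to 6 decimals on 41981 of 42034 rows, is not centred (medians -0.210, 0.172 and -0.0277), has its dye swap not turned, and served as an alternative. 

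Background was corrected by normexp in limma (offset 50) and dye bias by loess, array by array, giving no weight to the 2256 control spots. The 42034 gene spots were averaged to 40372 probes and these to 11143 genes, and the ratio was turned to 10 dpa over 1 dpa on every array. The ratio was tested against 0 with lmFit and eBayes, two-sided, with Benjamini-Hochberg adjustment over all genes and a threshold of 0.05. This stands in for the ANOVA of the methods, which needs the ovule arrays. The fit was also run on simulated data with independent noise on each array. That setting lacks the RNA codes shared between the real arrays, so it cannot check their effect. The number of arrays limits the precision. The software was R 4.3.3 with limma 3.58.1 and jsonlite 2.0.0.

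The members and all gene lists were chosen with earlier results of these data known. Named were both members, up to 6 genes of each list, and for each member the 3 described genes (expect value at most 1e-05) with the smallest distance over 3 arrays. Descriptions are best matches from the study's additional file. Alternatives were the background correction, the normalization, a filter on dim probes, the summary of probes, a dye term, the array as block, an F-test for each gene alone, single probes, and leaving out each replicate. Contig65 was not analysed here, and the result for 1 listed gene is not reported here.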

Additional observations from a re-analysis of the deposited data

How the results depend on the processing

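Contig1481 stayed below 0 and WTOV_01-01-17R_C02 above 0 under every alternative run. Contig1481 was -2.23 with the median of probes, -2.48 without probe 1 (an alternative chosen after seeing the data), and -0.087, -2.76, -2.10 and -2.57 with probes 1 to 4 alone. WTOV_01-01-17R_C02 was 0.71 with median centring, 0.70 with plain subtraction (also chosen after seeing the data), and 0.75 and 0.22 with probes 2 and 3 alone. Leaving out each replicate gave -1.95 to -1.75 and 0.44 to 0.60.

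Of all genes 703 passed with median centring, 949 without the array as block, 891 with plain subtraction, and 0 with scaling between arrays or with the F-test for each gene alone (2699 in limma and 1811 in the F-test at an unadjusted p under 0.05), against 1520. Under those last alternatives each of the 5 lists had 0 calls. GTP signalling had 4 with median centring, and without the array block the trichome network had 0 and the dividing-cell and green-tissue genes 1, which was the green-tissue gene. Leaving out each replicate gave 1 to 2 for other WD-repeat genes, 0 to 2 for the trichome network and 3 to 5 for dividing-cell and green-tissue genes, with the highest counts without replicate 1. GhAJ549758 turned to 0.044 with median centring and ranged from -0.21 to 0.083 as each replicate was left out, and the HYP3 tag matched to GhTTG1 to -0.016 with scaling and ranged from -0.16 to 0.28. Of 264 values of 22 named genes over 12 settings, 217 kept their direction and side of the threshold. The cause of these changes was not tested.

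The main fit pairs the stages within each array, and the labels give no replicate numbers for any other pairing. Keeping spots marked as outliers was not run, since the columns used hold no such mark, nor was a split by probe orientation, since each member has 1 orientation.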
